A study of Mus musculus with 2 samples.

Results

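The genes described here are 38 mouse genes known for genomic imprinting, 31 of them protein-coding and 7 noncoding, of 55413 annotated genes. They were taken from a fixed list of names, chosen with earlier results of these data known, and all 38 were found in the GENCODE M21 annotation. DNase-seq, an assay that maps open chromatin through the cuts of the nuclease DNase I in DNA left bare by nucleosomes, was run on hippocampus of 2 samples forming 1 group, with no other condition. The tissue label of both samples reads layer of hippocampus and does not say which layer. Each sample came from male B6CASTF1/J mice, the first-generation cross of the laboratory strain C57BL/6J with the wild-derived strain CAST/EiJ, at 10 days of age, and the labels name 3 males without saying whether they were pooled. Both samples carry the same donor label, so the spread between them may be partly technical. No sample received a treatment or carried an engineered allele, per the labels.

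An imprinted gene is read mainly from the copy inherited from 1 parent. The choice is written in the egg or the sperm as DNA methylation at an imprinting control region, which is kept through early development by the zinc finger proteins ZFP57 and ZFP445 with their cofactor TRIM28. Many control regions lie at a promoter, often that of a noncoding transcript, and the methylated copy of that promoter is silent. Brain and placenta express many of these genes, and several, such as Ube3a, are imprinted only in neurons. The heights used here sum both parental copies, so an imprinted promoter that is open on 1 copy and an ordinary promoter open on both cannot be told apart from height alone.

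The tissue label was checked against marker genes. All 4 pan-neuronal and all 6 hippocampal and excitatory neuron markers had an open promoter in both libraries, while none of the 3 placental markers had one in either. Of 4 markers each, 3 astrocyte genes were open in replicate 1 and 2 in replicate 2, and 2 oligodendrocyte genes were open in both. Only 1 astrocyte marker was open in both, with Aldh1l1 and Aqp4 open in replicate 1 alone and Slc1a3 in replicate 2 alone. Among 4 leptomeningeal and fibroblast markers 1 was open in both, at 2.77 and 3.99. Among 4 liver markers only Ttr, also listed for choroid plexus, was open, in replicate 2 alone. Of the 4 microglial markers, 0 were open in replicate 1 and 3 in replicate 2; of the 4 choroid plexus markers, 0 and 2, with Otx2 and Folr1 closed in both. Endothelial and mural markers ran the other way, with 2 of 4 open in replicate 1 and 0 in replicate 2. The part of these other cell types in the results was not tested, and in a bulk sample fewer cells of a type and less open chromatin per cell cannot be told apart.

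The authors listed 54546 open regions in replicate 1 and 74278 in replicate 2, each with a height, their own measure of cut density, used here to describe and rank regions. A gene counts as open when an annotated start of it has a listed region no more than 1000 bp away, and its value is the height of the highest such region. By this rule 29 of the 38 imprinted genes were open in both libraries, against 30.0% of all annotated genes. Taken singly, replicate 1 had 29 and replicate 2 had 30 open members, against 30.4% and 33.4% of all genes. The coding members stood at 24 of 31 in both libraries, 24 in replicate 1 and 25 in replicate 2, against 59.3%, 59.6% and 64.0% of protein-coding genes. The noncoding members stood at 5 of 7 in both and in each, against 23.8%, 24.4% and 28.4% of noncoding RNA genes. With the authors' longer, more permissive list 31 of the 38 were open in both, against 34.0% of all genes and 64.4% of protein-coding genes. The share of open members was thus above each background, as a description of these 2 libraries and not as a test. Because the members were chosen with earlier results of these data known, this share is not independent of the data. Among the 38, only Phlda2 differed between libraries, with a region in replicate 2 alone.

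The open members were not especially high. Their median height was 1.97 in replicate 1 and 2.46 in replicate 2, against 2.45 and 3.18 for all genes open in both libraries. The ratio of these medians was 0.788 ± 0.0235 (SD, n = 2 libraries). Of the 29 open members, 19 lay below the median of all open genes in both libraries and 9 above it in both. The range ran from Airn, at 0.874 and 0.732, to Inpp5f, at 5.63 and 5.59, and Commd1, at 4.75 and 6.28 (replicate 1 and replicate 2 in this order throughout). Height was greater in replicate 2 for 25 of the 29, as it was for the median of all genes; Kcnq1ot1, Airn, Mirg and Inpp5f were greater in replicate 1.

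**Figure D1:**
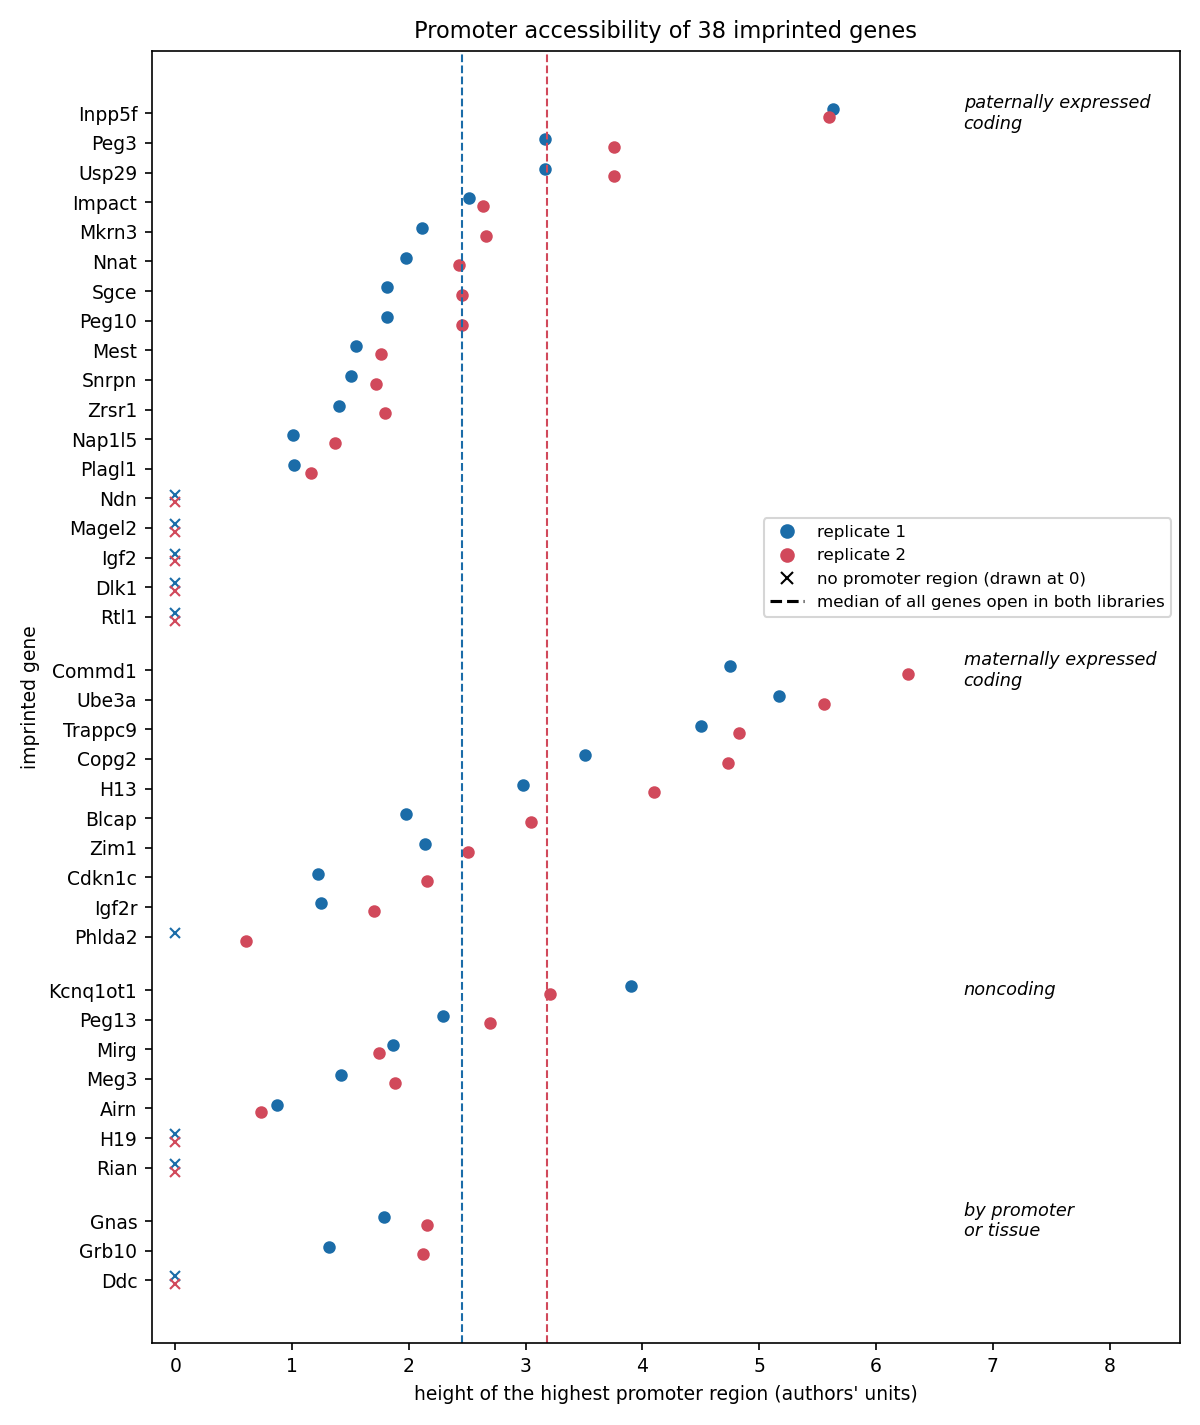
Height of the highest region within 1000 bp of an annotated start (x axis, the authors' units) for each of the 38 imprinted genes (y axis), grouped by the parental copy usually expressed; blue points are replicate 1, red points replicate 2, crosses at 0 mark no region, and dashed lines give the medians of all genes open in both libraries (2.45 and 3.18). The 9 open maternally expressed coding genes include 5 above both medians, while the 13 open paternally expressed ones include 3. Of these 3, Peg3 and Usp29 have the same highest region, inside Peg3, and Inpp5f is counted at its first start, which is not imprinted. The imprinted start of Inpp5f had 1.85 and 2.17, below both medians.

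Among coding genes usually expressed from the paternal copy, 13 of 18 were open in both libraries, against 59.3% of protein-coding genes. The median heights of these 13 were 1.82 and 2.46. Inpp5f, which encodes a phosphoinositide phosphatase, stood highest of them, through its first start, which is not imprinted. Its imprinted start had 1.85 and 2.17. Peg3 is a zinc finger gene whose loss impairs maternal care in mice, and its neighbour Usp29 is a ubiquitin-specific protease gene. They had the same highest region, of height 3.16 and 3.76. A second region, over the start of Peg3, had 2.72 and 2.66, above the median of all open genes in replicate 1 only. Impact, an inhibitor of the kinase GCN2 that is abundant in neurons, had 2.51 and 2.63, and Mkrn3, a makorin RING finger gene that restrains puberty in humans, had 2.11 and 2.66. These 5 genes thus occupied the upper end of the paternal group in both libraries.

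The rest of the paternal group was lower. Nnat, which encodes neuronatin, a small membrane protein of developing brain, had 1.97 and 2.43. Peg10, a gene derived from a retrotransposon and needed for the placenta, and Sgce, which encodes ε-sarcoglycan and is mutated in myoclonus-dystonia, start back to back and shared a region of 1.82 and 2.46. Mest had 1.55 and 1.76, Snrpn, which encodes a splicing protein of neurons, 1.50 and 1.72, and Zrsr1, a splicing factor-like gene, 1.40 and 1.80. In replicate 2 the Mest value came from a region 830 bp from a start, and the region over that start had 1.67. Nap1l5, a nucleosome assembly protein-like gene, and Plagl1, a zinc finger regulator of growth, were the lowest open ones, at 1.01 and 1.37 for Nap1l5 and 1.02 and 1.16 for Plagl1. All of these lay below the medians of all open genes in both libraries.

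The 5 remaining paternally expressed genes had no promoter region in either library, all of them in the clusters of Ndn and Magel2, of Dlk1 and Rtl1, and of Igf2. Ndn and Magel2 encode proteins of the MAGE family and lie in the region deleted in Prader-Willi syndrome. Ndn still had an accessible site inside the gene, about 1.7 kb from its start, with heights of 2.21 and 2.71. The annotation gives Ndn only 1 start, on which its call rests, and within 2500 bp of that start Ndn counted as open in both libraries. Magel2 had a region in the longer list, at 0.478 and 0.453, and 680 and 352 bases within 1000 bp of its start with a deposited false discovery rate of at most 0.05. Dlk1, a Notch ligand-like growth regulator, had a region in the longer list of replicate 2 alone, at 0.563, and no region of the shorter list within 10 kb, the nearest lying 14803 bp from a start. No base near a start of Ndn, Igf2 or Rtl1 was listed in either library. Among all protein-coding genes with no promoter region in either library, 6.4% and 13.8% had such a base. Of these 5 genes only Magel2 had a region in the longer list in both libraries, while Ndn had the nearest region of the shorter list.

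Genes usually expressed from the maternal copy were open in 9 of 10 cases in both libraries, against 59.3% of protein-coding genes. The median heights of these 9 were 2.97 and 4.10. Commd1, which regulates copper export and NF-κB, had 4.75 and 6.28; Ube3a, the ubiquitin ligase gene of Angelman syndrome that neurons read from the maternal copy, had 5.17 and 5.56. Trappc9, a vesicle tethering gene, had 4.50 and 4.83, Copg2, a coat protein gene, 3.51 and 4.73, and H13, which encodes signal peptide peptidase, 2.97 and 4.10. These 5 lay above the median of all open genes in both libraries. Most are broadly expressed genes that are imprinted through a neighbouring or internal transcript, which is background and not a result of these data.

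The other maternally expressed genes were lower. Blcap, a gene of apoptosis, had 1.97 and 3.04 and Zim1, a zinc finger gene, 2.14 and 2.51. The Blcap values belong to different regions, that of replicate 1 being the promoter region of Nnat. Igf2r, the receptor that clears the growth factor IGF2, had 1.24 and 1.70. Cdkn1c, the cyclin-dependent kinase inhibitor p57, had 1.22 and 2.16, and Phlda2, which limits placental growth, had 0.606 in replicate 2 only. In the longer list Phlda2 was present in both, at 0.396 and 0.606. Igf2r, Cdkn1c and Phlda2 were thus the lowest of this group in both libraries.

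Cdkn1c and Phlda2, both growth inhibitors of the Kcnq1ot1 cluster, had stronger sites upstream than at their own starts. Cdkn1c had 3 regions shared by the libraries at about 3.0, 5.5 and 9.1 kb upstream. Their heights were 1.66 and 2.80 at the nearest, 2.39 and 4.28 at the middle one and 1.24 and 2.20 at the farthest. Phlda2 had a region 2.9 kb upstream with 1.89 and 2.88. In each library the middle Cdkn1c site and the Phlda2 site exceeded the promoter of the gene they stand beside. Which gene such a site acts on was not tested.

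Genes whose imprint depends on promoter or tissue numbered 3. Gnas, which encodes the stimulatory G protein subunit and several alternative products, had 1.78 and 2.15. Grb10, an adaptor that dampens insulin signalling and is read from the paternal copy in neurons but the maternal copy in most other tissues, had 1.32 and 2.12. Ddc, the neighbouring gene for DOPA decarboxylase, imprinted in heart, had no promoter region, although 60 and 140 bases near its starts were listed at a false discovery rate of at most 0.05. Inside Ddc, at about 77.7 kb from its outermost start, a region had 2.58 and 2.75.

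The noncoding transcripts split into open and closed ones. Kcnq1ot1, the paternally expressed antisense RNA that silences its neighbours, had the highest promoter at 3.90 and 3.21. Peg13, expressed from the paternal copy inside Trappc9, had 2.29 and 2.70. Mirg, a host transcript of microRNAs, had 1.87 and 1.75, Meg3, a maternally expressed growth-suppressing RNA, 1.42 and 1.88, and Airn, the antisense silencer of Igf2r, 0.874 and 0.732. H19 and Rian, which carry a microRNA and many small nucleolar RNAs, had no promoter region and no base listed near a start in either library. The 3 maternal noncoding genes on chromosome 12, which are thought to be read as 1 long unit starting at Meg3, thus differed: Meg3 was open in both libraries about 2.0 kb into the gene, Rian was closed throughout and Mirg was open near its end.

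Many of these genes have several annotated starts. Grouping starts no more than 1000 bp apart gave 118 groups over the 38 members, of which 43 had a region in both libraries, 4 in 1 library and 71 in neither. In 23 members the outermost group was open in both. The same shares over the start groups of all genes were not worked out, so these counts only describe the members. In Grb10, Mest, Mirg and Plagl1 the outermost group was closed and another was open. For Mest and Plagl1 the open group is the known imprinted start: of 6 groups in Mest the only open one lay 14.5 kb into the gene, and of 4 groups in Plagl1 the only open one lay 30.2 kb in.

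Grb10 was open at some of its alternative starts and closed at others. Its outermost groups, at 0 and 1.3 kb, had no region in either library. The group at 12.0 kb had heights of 1.32 and 2.12. The group at 10.7 kb had 0.547 and 0.961, from regions that also lie within 1000 bp of the group at 12.0 kb. The height at 10.7 kb is therefore not that of this group alone. The remaining 4 groups were closed. The open starts therefore lay inside the gene, where the promoters used in neurons are known to be.

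Inpp5f and Gnas had open starts of unequal height. The first start of Inpp5f, which is not imprinted, had 5.63 and 5.59, whereas the last group, 76.2 kb in, where the imprinted brain variant begins, had 1.85 and 2.17. Another region 79.0 kb from the first start, outside 1000 bp of any start, had 5.55 and 7.17. Inpp5f was thus higher at its biparental start than at its imprinted one in both libraries. In Gnas the group at 60.3 kb had 1.26 and 1.12, that at 45.7 kb, where the main G protein transcript begins, 1.78 and 2.15, and that at 43.2 kb, the imprinted exon 1A area, 1.23 and 1.57. In the shorter list the outermost group, the start of the maternally expressed Nesp product, had a region in replicate 2 only, at 0.978. The group at 13.5 kb, the start of the paternally expressed XLαs product, had none there. In the longer list both starts had a region in each library, at 0.748 and 0.978 for Nesp and 0.603 and 1.05 for XLαs. Near 11.2 kb the start of the antisense RNA Nespas had 3.16 and 3.65, higher than each Gnas start in both libraries.

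**Figure D2:**
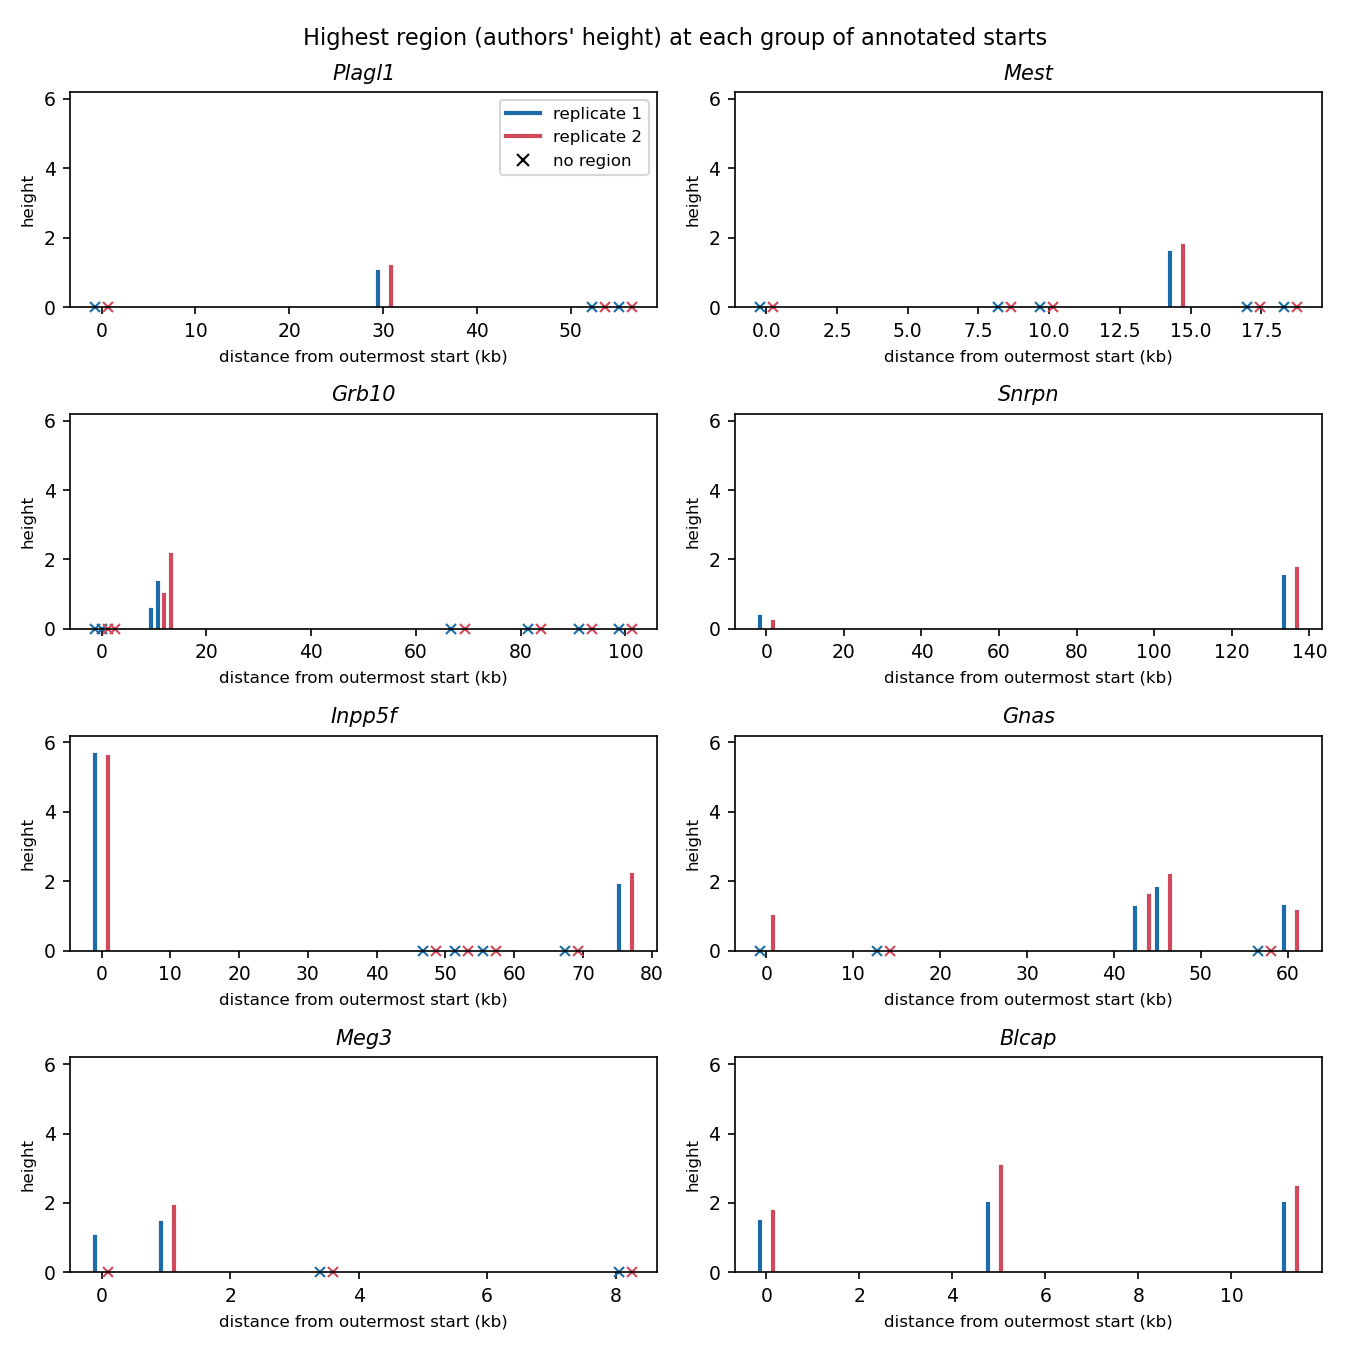
Height (y axis, the authors' units) of the highest region within 1000 bp of each group of annotated starts, by distance from the outermost start in kb (x axis), for 8 imprinted genes; bars are replicate 1 (blue) and replicate 2 (red), drawn side by side, and crosses mark groups with no region. Mest and Plagl1 each have 1 open group inside the gene, and Inpp5f has 1.85 and 2.17 at its last group, against 5.63 and 5.59 at its first.

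Snrpn, Meg3 and Blcap completed this picture. The start of Snrpn at 135.1 kb had 1.50 and 1.72, and the outermost annotated start 0.352 and 0.202. The region at that outermost start in replicate 1 has a near-identical copy on the same chromosome, so its reads may be split between copies. In Meg3 the outermost start had a region in replicate 1 only, at 1.01, and the group 1.0 kb in had 1.42 and 1.88. In the longer list the outermost Meg3 start had a region in both libraries, at 1.01 and 0.994. Blcap had 3 open groups in both libraries, and its innermost one, at 1.97 and 2.43, is the same region as the promoter of Nnat, which lies inside Blcap on the other strand.

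At several loci a gene that begins at a methylated control region can be set beside the partner it overlaps or faces. Of 10 such pairs examined, in 2, Peg10 with Sgce and Peg3 with Usp29, both genes have the same highest region. Of the other 8, the gene at the control region was the lower of the pair in both libraries in 5, the higher in 2, and in 1 the partner was closed. The lower ones were Mest at 1.55 and 1.76 against Copg2 at 3.51 and 4.73, Zrsr1 at 1.40 and 1.80 against Commd1 at 4.75 and 6.28, and Peg13 at 2.29 and 2.70 against Trappc9 at 4.50 and 4.83. In these 3 pairs the gap between partners was larger than the difference between the libraries for either gene.

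The remaining pairs were closer. Airn had 0.874 and 0.732 against Igf2r at 1.24 and 1.70, and Nap1l5 had 1.01 and 1.37 against Herc3, its host gene and not one of the 38, at 1.42 and 2.12. In both pairs the gap in each library was under 1 unit of height. In the opposite direction Nnat had 1.97 and 2.43 against the outermost start of Blcap at 1.46 and 1.73. This direction depends on the start chosen, since the next group of Blcap starts had 1.97 and 3.04. Mcts2, a paternally expressed retrogene inside H13, had 3.46 and 4.26 against H13 at 2.97 and 4.10, a gap smaller than the difference between the libraries. Kcnq1ot1 was open at 3.90 and 3.21, while its partner Kcnq1, a potassium channel gene, had no promoter region in either library. With 1 group of 2 libraries no test of these pairs was made.

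Upstream of H19 lies the control region that decides between H19 and Igf2. On the unmethylated maternal copy it binds CTCF, a zinc finger protein that insulates Igf2 from shared enhancers. Within 5 kb upstream 3 regions were found in both libraries although neither gene had an open promoter. They are printed from the regions of replicate 2, on the strand of H19, with the match to part of the CTCF motif of this control region in capitals. The sequences are those of the reference strain C57BL/6J, GRCm38, minus strand, and the CAST/EiJ copy may differ: H19 upstream 1 is chr7:142580284-142580374, H19 upstream 2 is chr7:142580661-142580846 and H19 upstream 3 is chr7:142581729-142581938.
H19 upstream 1: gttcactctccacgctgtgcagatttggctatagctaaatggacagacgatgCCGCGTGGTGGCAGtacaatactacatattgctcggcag
H19 upstream 2: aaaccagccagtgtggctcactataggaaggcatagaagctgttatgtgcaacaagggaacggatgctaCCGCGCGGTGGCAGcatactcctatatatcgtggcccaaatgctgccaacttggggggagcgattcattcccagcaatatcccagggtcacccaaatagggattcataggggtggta
H19 upstream 3: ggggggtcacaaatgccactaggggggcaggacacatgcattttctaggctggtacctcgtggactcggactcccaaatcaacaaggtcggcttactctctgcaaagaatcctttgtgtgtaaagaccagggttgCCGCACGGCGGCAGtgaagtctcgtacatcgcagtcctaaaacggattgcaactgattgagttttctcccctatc

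Each region held 1 match, and all 3 matches lay on the strand of H19. Region 1, about 2.14 kb upstream in replicate 1, had heights of 0.792 and 1.03, region 2 of 1.13 and 1.50, and region 3 of 0.729 and 1.29. The middle region was the highest in both libraries. These heights were low: region 2 reached percentiles 18.4 and 18.7 of the heights of all open genes. A footprint, a stretch of few cuts within an open region of the kind a bound protein leaves, covered all 14 bases of the match 2627 bp upstream in both libraries. The match 2172 bp upstream was wholly covered in replicate 2 only, and of the match 3653 bp upstream 5 bases were covered, again in replicate 2 only.

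The CTCF motif was searched on both strands. Its stricter form, with a G as the fifth letter, occurred at 2 places in the regions of all member loci, both upstream of H19. They are found in the central 300 bases of 0.033% and 0.0269% of all regions. The form printed above, with the fifth letter free as well as the sixth and the ninth, was chosen after the sequences were seen and occurs in 0.216% and 0.17% of all regions. Its only other occurrence at a member locus was in the promoter region of Commd1, under no footprint in either library. Footprints overlapped 1 of these 4 member matches by at least 1 base in replicate 1 and 3 of 4 in replicate 2. In all regions 81.1% and 81.9% of matches of this form were overlapped, a larger share in both libraries. For the stricter form, 1 and 2 of the 2 member matches were overlapped, not below the share in all regions in either library. With so few matches no test was made. The strict form is a subset of the free form, and a match is a description and not a proven site.

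**Figure D3:**
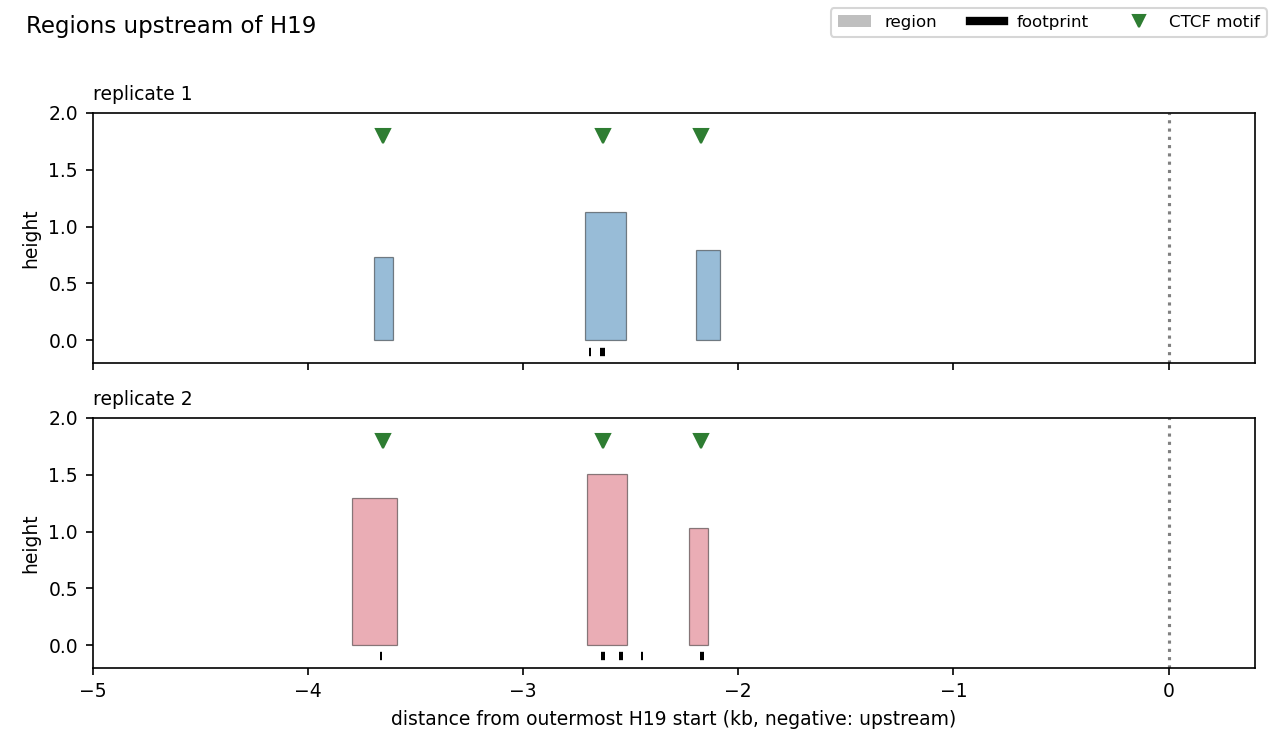
Open regions upstream of H19 in replicate 1 (top) and replicate 2 (bottom): boxes give the extent (x axis, kb from the outermost H19 start) and height (y axis, the authors' units) of each region, black ticks the footprints and green triangles the matches to the CTCF motif with the fifth letter free. All 3 regions hold a match, and the match 2627 bp upstream lies on a footprint in both libraries.

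Igf2 itself, the growth factor gene that in brain is expressed mainly outside neurons, had all 6 groups of starts closed. Within 10 kb upstream it had regions at 5.5 kb, with 1.77 and 1.99, and at about 9.0 kb in replicate 2, with 1.35 and 2.09. The interval between Dlk1 and Meg3, which holds the control region of that cluster, gave no region shared by the libraries in the shorter list. Replicate 1 had 1 region 29.35 kb upstream of Meg3, at 0.610, and replicate 2 had 1 region 49.09 kb upstream, at 0.601. In the longer list both places had a region in each library. The listed sites between Dlk1 and Meg3 were thus weak and differed between the libraries at the stricter level. Near Rtl1 and Rian the only region, beside the gene of the microRNA Mir136, had 0.786 and 0.743.

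Peg3 had a cluster of accessible sites at its control region. Its known control region runs from the shared start of Peg3 and Usp29 into the first intron of Peg3 and holds repeated sites for YY1, a zinc finger factor that both activates and represses. The region over the start itself had 2.72 and 2.66, and the highest promoter region, of 3.16 and 3.76, lay about 0.7 kb inside the gene. Overlapping regions with heights of 2.27 to 3.04 in replicate 1 and 2.47 to 2.91 in replicate 2 followed in the intron. The highest promoter region of replicate 2 is printed on the strand of Peg3, chr7:6729441-6729720 of GRCm38, minus strand, with matches to the YY1 letters GCCATNTT in capitals.
Peg3: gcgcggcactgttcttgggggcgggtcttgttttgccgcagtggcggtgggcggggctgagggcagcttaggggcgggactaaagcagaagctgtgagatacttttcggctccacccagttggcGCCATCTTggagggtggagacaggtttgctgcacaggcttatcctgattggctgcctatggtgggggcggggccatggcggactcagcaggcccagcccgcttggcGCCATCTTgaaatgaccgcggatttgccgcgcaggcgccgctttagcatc

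In the regions inside Peg3 there were 11 matches, all 11 in the orientation of the gene, from 839 to 3005 bp downstream of its outermost start. A footprint overlapped 6 of them by at least 1 base in both libraries, 1 in replicate 1 alone and 4 in neither. Counting only matches with at least 50% of their 8 bases under a footprint, a rule added after seeing the data, gave 4 in both libraries, 1 in replicate 1 alone, 2 in replicate 2 alone and 4 in neither. Of the matches printed above, the one at 839 bp lay wholly under a footprint in both libraries, and the one at 945 bp had 1 base under a footprint in replicate 1 and 5 in replicate 2. Over the loci of all members, 58.8% and 55.0% of matches overlapped a footprint by at least 1 base, against 43.2% and 41.9% of matches in all regions. The letters, searched on both strands, occur in the central 300 bases of 6.16% and 5.75% of all regions. Regions at member loci held 17 and 20 matches, so a large part of the member share comes from Peg3.

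**Figure D4:**
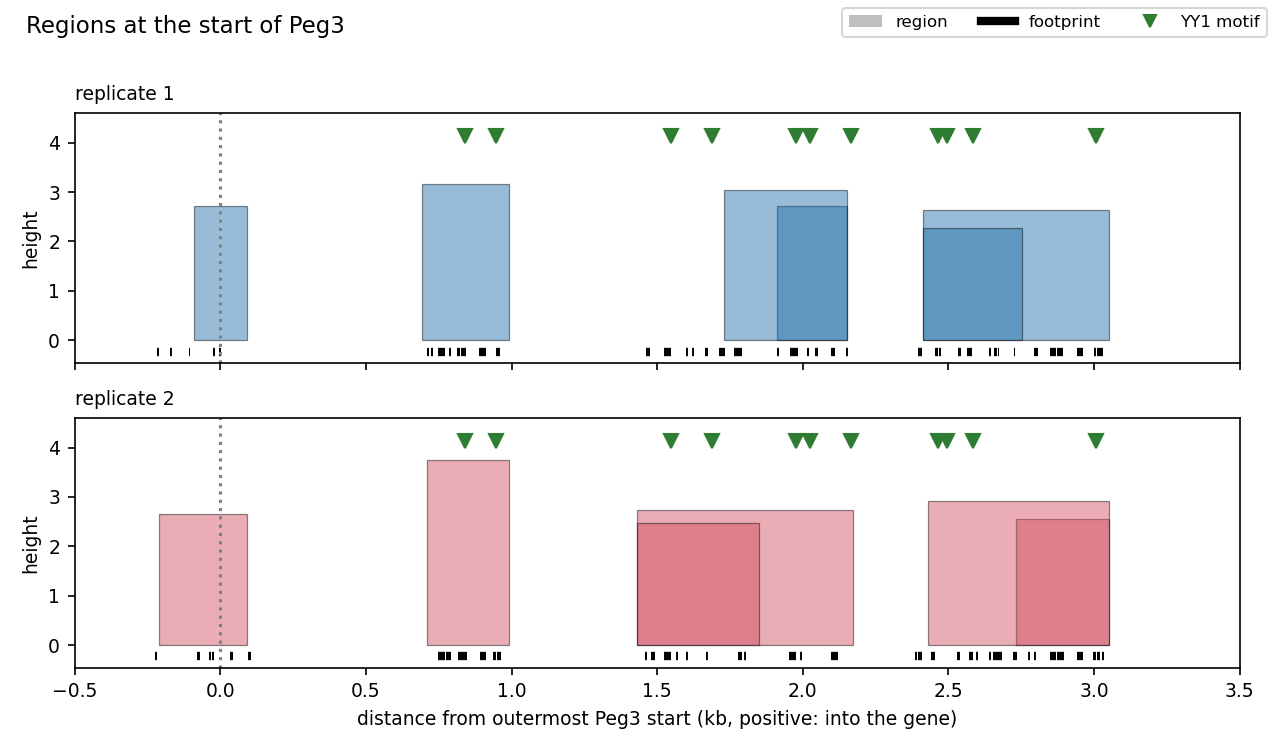
Open regions at the beginning of Peg3 in replicate 1 (top) and replicate 2 (bottom): boxes give the extent (x axis, kb from the outermost Peg3 start, positive into the gene) and height (y axis, the authors' units) of regions, black ticks the footprints and green triangles the 11 matches to the YY1 motif. The matches run from 839 to 3005 bp, and 6 of them overlap a footprint by at least 1 base in both libraries.

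ZFP57 recognises the letters TGCCGC where the central CG is methylated. The letters, searched on both strands, occurred in 22 of 53 promoter regions of members in replicate 1 (41.5%) and in 28 of 80 in replicate 2 (35.0%), against 21.4% and 21.2% of all promoter regions. The median GC content was 61.3% and 58.8% in the member regions, against 62.7% and 62.0% in all promoter regions. The part of base composition in the frequency of the letters was not tested. Matches overlapped a footprint by at least 1 base in 29.3% and 30.0% of cases at members, against 30.8% and 29.7% in all regions. The letters were thus more frequent at imprinted promoters in both libraries, and their footprint share was close to that of all matches. Overlapping and neighbouring regions of 1 promoter are counted separately here, and no test was made.

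The regions below are the promoters of 3 genes that start at a methylated control region, from replicate 2 and on the strand of the gene, with the ZFP57 letters in capitals, here read as GCGGCA from the other strand. Coordinates in GRCm38 are chr7:60005041-60005240 (minus) for Snrpn, chr17:12741381-12741500 (plus) for Airn and chr6:30737881-30738180 (plus) for Mest. The heights of these regions were 1.72 for Snrpn, 0.732 for Airn and 1.67 for Mest. Snrpn and Mest held 2 matches each, and Airn 1.
Snrpn: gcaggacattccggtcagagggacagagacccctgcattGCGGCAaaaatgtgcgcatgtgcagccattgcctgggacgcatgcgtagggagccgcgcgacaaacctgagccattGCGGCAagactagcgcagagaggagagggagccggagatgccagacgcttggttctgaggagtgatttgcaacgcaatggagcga
Airn: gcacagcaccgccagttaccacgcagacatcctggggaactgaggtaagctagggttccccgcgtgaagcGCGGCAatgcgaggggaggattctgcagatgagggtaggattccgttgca
Mest: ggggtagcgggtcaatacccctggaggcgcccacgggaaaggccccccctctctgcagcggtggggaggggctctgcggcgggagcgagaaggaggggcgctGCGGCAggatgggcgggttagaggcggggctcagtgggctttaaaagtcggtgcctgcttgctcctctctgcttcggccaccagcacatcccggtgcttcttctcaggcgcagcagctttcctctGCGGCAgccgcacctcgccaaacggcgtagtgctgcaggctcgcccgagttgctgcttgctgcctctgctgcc

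NRF1 is a factor that binds a GC-rich palindrome when it is free of methylation. The palindrome, the same on both strands, was present in 3 of 53 and 3 of 80 promoter regions of members, against 1.41% and 1.15% of all promoter regions. The 3 matches lay at Meg3, at the start of Nnat inside Blcap, and at Zrsr1 inside Commd1, and a footprint covered each of them in both libraries. Footprints overlapped 95.0% and 95.6% of the matches in all regions by at least 1 base. The Meg3 region, chr12:109542941-109543160 of GRCm38 on the plus strand, is printed with the palindrome in capitals.
Meg3: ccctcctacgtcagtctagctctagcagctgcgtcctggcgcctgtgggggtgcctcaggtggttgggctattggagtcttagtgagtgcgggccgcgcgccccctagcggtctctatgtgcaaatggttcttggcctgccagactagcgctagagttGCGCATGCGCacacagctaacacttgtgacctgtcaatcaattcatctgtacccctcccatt

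Over whole loci, each taken as the gene body with 10 kb on either side, the members held 121 regions in replicate 1 and 171 in replicate 2, each counted once where loci overlap. Of the replicate 1 regions, 114 had an overlap of at least 1 bp in replicate 2, which is 94.2% of them and, counted from the other side, 67.3% of those of replicate 2. The same shares over all regions were 88.3% and 64.3%. The median was 3 shared regions per member, against 2 for protein-coding genes and 1 for all genes. At least 1 shared region was present at 36 of 38 members, against 75.7% of protein-coding genes and 51.4% of all genes. Magel2 and Dlk1 had none. Locus length differs between genes, and these counts were not adjusted for it.

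Sites away from annotated starts, some of them high, stood at a few members. The region 6.4 kb upstream of Trappc9 in replicate 1 had 7.08 and 7.02, above the Trappc9 promoter in both libraries. Peg10 had a site about 2.0 kb into the gene with 3.12 and 3.91, again above its own promoter. Usp29 had sites at 187.9 kb, with 2.77 and 4.39, and at 206.7 kb, with 2.19 and 2.93. Grb10 had a site 65.1 kb in with 1.80 and 2.41. All of these were shared by the libraries, and in Trappc9, Peg10 and Grb10 they exceeded the highest promoter region of the gene. The Grb10 site and the Usp29 site at 206.7 kb lay below the medians of all open genes in both libraries.

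The libraries differed at the end of Mirg. Replicate 1 had a single region there, at 1.87, and replicate 2 had 12, the highest at 1.75 in the same place. The other 11 regions of replicate 2 overlapped none of replicate 1, had heights from 0.175 to 0.923, and 6 of them held no footprint. Apart from the one at 0.923 they reached at most 0.366, a height that only 6.45% of the regions of replicate 2 do not exceed. The 12 regions span chr12:109743761-109750260. The promoter call of Mirg rests on the region present in both libraries.

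**Figure D5:**
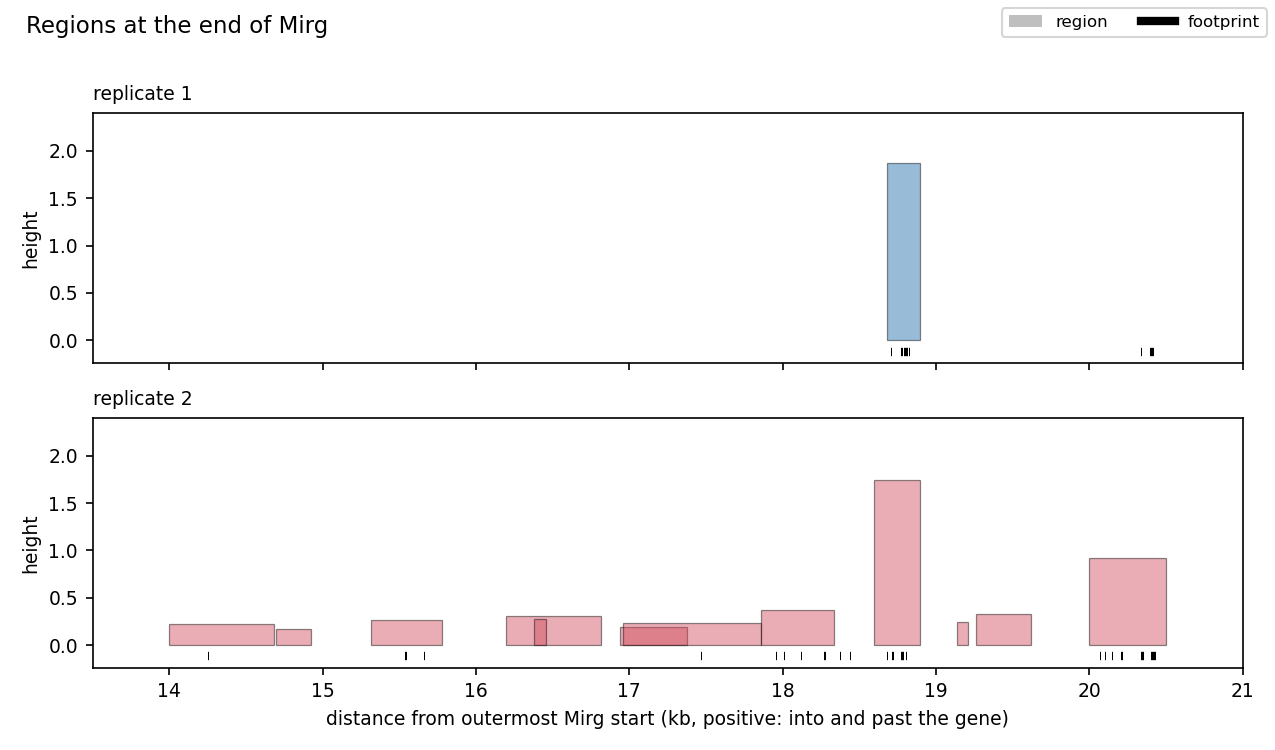
Open regions at the end of Mirg in replicate 1 (top) and replicate 2 (bottom): boxes give the extent (x axis, kb from the outermost Mirg start) and height (y axis, the authors' units) of regions and black ticks the footprints. The region at 1.87 and 1.75 is present in both libraries, and 11 lower regions, from 0.175 to 0.923, are present in replicate 2 alone.

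Footprints were about as dense at imprinted promoters as elsewhere. A promoter region of a member held on average 3.68 footprints in replicate 1 and 3.39 in replicate 2, against 3.30 and 3.75 for all promoter regions, with a median of 3 in every case. At least 1 footprint was present in all but 4 of 53 member regions in replicate 1 and all but 15 of 80 in replicate 2. This share was not worked out over all promoter regions, so it is no comparison. The greatest number was 10 and 15. The order of members and background thus differed between the libraries.

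Of a list of 38 other imprinted genes, 16 had an open promoter in both libraries, against 30.0% of all genes and 59.3% of protein-coding genes. Another 7, Atp10a, Begain, Htr2a, Ins2, Klf14, Pon3 and Slc22a3, had one in replicate 2 only. Unlike that of the members, the share of this list open in both libraries was below that of protein-coding genes. Their median heights were 1.78 and 2.61, near those of the members. The 15 closed ones include Slc22a2 and Slc22a18, transporter genes of the Igf2r and Kcnq1ot1 clusters, Th, the dopamine synthesis gene, and Dio3, which inactivates thyroid hormone. Against 29 of 38 members, this is a count on a list drawn up with earlier results of these data known, and the difference was not tested.

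Of 19 genes that set or keep imprints, 16 were open in both libraries, against 30.0% of all genes and 59.3% of protein-coding genes. Dnmt1 and Uhrf1, which copy methylation at cell division, had 4.48 and 5.07 for Dnmt1 and 3.70 and 4.58 for Uhrf1. Trim28 had 3.57 and 5.98 and Setdb1, its histone methyltransferase partner, 3.98 and 4.83. Zfp57 and Zfp445 were lower, at 0.918 and 1.05 for Zfp57 and 1.24 and 1.92 for Zfp445. Yy1 had 4.61 and 5.51 and Ctcf 2.11 and 3.18, so the genes for the factors of the H19 and Peg3 motifs above had an open promoter. The genes closed in both were Dppa3, a factor of the egg and early embryo, and Ctcfl, a relative of Ctcf active in testis, and Dnmt3l, a germ cell cofactor, was open in replicate 2 only.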

How the data were processed

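DNase-seq regions, footprints and per-base rates of 2 libraries were used. Coordinates are mm10, per the labels; the sources used here name no aligner, caller, height normalisation or depth, so no counting interval was given. Each deposited region carries the authors' own signal height. Results rest on the shorter lists (54546 and 74278 regions), with the longer ones (94187 and 131213) as an alternative. The authors' footprint lists (226223 and 345745) hold the p-value 0.01 throughout, taken as their limit. The false discovery rates deposited per base, read as adjusted p-values of the authors, are listed up to 0.05.

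Genes and starts came from GENCODE mouse M21 and sequence from GRCm38. Promoter regions lay within 1000 bp of any start, loci were the gene body plus 10 kb, and shared regions overlapped by at least 1 bp. Motifs were counted in the central 300 bases, and in whole regions where positions are given. Medians compare members with all genes, with no test, since there is 1 group. Copies were searched with BLAST 2.17.0 at 90% identity over 90% of the length, and 5 of 292 regions had one. Python 3.11.15, pandas 2.3.3 and pysam 0.24.0 were used. Every member is named. Members and lists were chosen with earlier results of these data known. The sequence of 1 promoter is not reported here.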

Additional observations from a re-analysis of the deposited data

How the results depend on the processing

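The count of members open in both libraries, 29, ranged from 23 to 32. It was 29 within 500 bp of a start and with equal numbers of regions, 32 within 2500 bp (adding Ddc, H19 and Ndn), 31 with the longer list (adding Magel2 and Phlda2), 26 with the stronger 50% of regions (losing Airn, Nap1l5 and Plagl1) and 23 with the outermost start only (losing Gnas, Grb10, Meg3, Mest, Mirg and Plagl1). A single library gave 29 to 30. Among these alternatives the share of all genes was worked out for the longer list and the single libraries only. The other counts therefore do not show how far the members stood above the background under the same rule. The median height of open members, 2.22 ± 0.343 (SD, n = 2 libraries), ranged from 2.16 to 2.43 under other settings and from 1.97 to 2.46 in a single library. The 114 shared regions became 179 with the longer list, 164 with flanks of 50 kb, 91 without flanks or with reciprocal overlap of 50% and 78 with the stronger 50%; a single library, chosen as an alternative after seeing the data, held 121 to 171. Mean footprints per promoter region, 3.53 ± 0.206 (SD, n = 2 libraries), became 2.90 with the longer list and ranged from 3.39 to 3.68 in a single library. No paired analysis was possible because the samples form 1 group. The sources used here state no depth, so the absence of a region means that none was listed, not that a start is closed in every cell.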
